A study of Mus musculus with 15 samples.

Results

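The ZIC genes encode zinc-finger transcription factors named after the cerebellum, where they were first described. Their 4 members on this array with a row of their own are Zic1, Zic2, Zic4 and Zic5, out of 22180 genes measured. A member was taken from the array rows that carry its symbol and no other, and of several rows the one with the highest mean was used. Zic5 had such a choice, and Zic1, Zic2 and Zic4 each had 1 row.

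RNA of newborn C57BL/6 mouse cerebella was measured in 15 libraries, 1 array each, in 3 groups of 5. The double knockout (DKO) lacks glycogen synthase kinase 3 in its alpha and its beta isoform. In the Math1-Cre group Gsk-3 beta was deleted by a Cre recombinase under the Math1 (Atoh1) promoter, which granule neuron progenitors use. In the no-Cre group no recombinase was present and the kinases were described as intact. The descriptions of both of these groups read Gska+- and GskBff, so 1 altered Gsk3a allele is shared by them, and the description of no-Cre library 5 leaves out the Gsk3b genotype. The descriptions of the DKO libraries give only that name. Age is given as postnatal day 1 in one field and day 2 in another, and the lowest RNA integrity number as 7.5. The dissociated cells were enriched for granule neuron progenitors by density, which leaves room for other cerebellar cells, and a Cre driven by Math1 acts in part of the cells sampled. The study asked what loss of the kinases changes in these progenitors.

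ZIC proteins bind DNA through a domain related to that of the GLI factors, the effectors of Sonic hedgehog signalling, and can act as activators or as repressors. In the mouse cerebellum Zic1 and Zic2 are expressed in the external granule layer and in granule neurons, and loss of Zic1 gives a small cerebellum. In humans, deletion of ZIC1 together with ZIC4 has been found in Dandy-Walker malformation, and ZIC2 mutations cause holoprosencephaly. Zic5 acts in neural crest and neural tube formation in the mouse. ZIC genes are also expressed in the meninges, so their RNA in a cerebellar sample need not come from the granule lineage alone.

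The 4 genes lie as neighbour pairs. Zic1 and Zic4 are on chromosome 9 with 0 genes lying wholly between them, and their start sites point away from each other at a distance of 3204 bases in the assembly GRCm38.p6. Zic2 and Zic5 are on chromosome 14 with 1 gene, 2610035F20Rik, wholly between them. The promoters of 3 members, in RefSeq's annotation of that assembly, are shown because the pairs are set against each other further on. Each runs from 250 bases before the start site to 50 after it. The Zic1 window is chr9:91365719-91366018 on the minus strand, the Zic4 window is chr9:91368722-91369021 on the plus strand, and the Zic5 window is chr14:122465609-122465908 on the minus strand. Capitals mark a CACGTG motif, the E-box bound by MYC proteins, and nothing else is in capitals.
Zic1: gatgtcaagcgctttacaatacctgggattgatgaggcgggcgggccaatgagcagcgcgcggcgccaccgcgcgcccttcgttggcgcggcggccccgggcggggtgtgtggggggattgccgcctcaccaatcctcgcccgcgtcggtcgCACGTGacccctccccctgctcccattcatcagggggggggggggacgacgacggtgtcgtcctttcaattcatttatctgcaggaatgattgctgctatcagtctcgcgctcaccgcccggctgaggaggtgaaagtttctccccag
Zic4: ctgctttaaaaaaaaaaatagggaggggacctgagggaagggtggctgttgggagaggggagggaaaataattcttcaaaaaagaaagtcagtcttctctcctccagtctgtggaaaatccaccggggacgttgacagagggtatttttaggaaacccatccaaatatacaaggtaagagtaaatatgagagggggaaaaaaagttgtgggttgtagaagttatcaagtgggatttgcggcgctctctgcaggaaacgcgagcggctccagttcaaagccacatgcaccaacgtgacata
Zic5: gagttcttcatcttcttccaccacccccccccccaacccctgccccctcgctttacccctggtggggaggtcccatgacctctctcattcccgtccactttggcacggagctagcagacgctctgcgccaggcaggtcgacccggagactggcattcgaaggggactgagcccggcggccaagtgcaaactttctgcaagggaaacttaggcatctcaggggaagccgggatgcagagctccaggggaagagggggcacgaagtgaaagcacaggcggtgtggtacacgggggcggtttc
The Zic1 motif begins at base −98, counted from the start site, and 7.15% of 32851 mouse promoters of the same length hold it on either strand. The GLI core CCACCCA, the ZIC core CAGCAGG, the TCF/LEF motif CTTTGAT and the E-boxes CAGCTG and CAGATG had no match in these windows on either strand. They occur in 9.3%, 10.5%, 3.73%, 16.3% and 17.2% of all promoters. The windows of Zic1 and Zic5 had a GC content of 65.3% and 62.7%, with 31 and 15 CpG sites. The Zic4 window had 46.0% and 8 CpG sites, against a median GC of 52.7% over all promoters (quartiles 45.7% and 61.7%).

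The row annotated to Gsk3a went against the label in 4 libraries, so the group comparisons and the correlations below are also given without them. Its level, as all levels here a log2 value, was 9.47, 8.22, 9.37, 7.89 and 8.27 in DKO libraries 1 to 5. It was 8.25, 8.03, 9.48, 9.50 and 9.51 in Math1-Cre libraries 1 to 5, and 9.42, 9.52, 9.59, 9.42 and 9.57 in no-Cre libraries 1 to 5. The libraries labelled DKO 1 and DKO 3 were as high as the no-Cre libraries, and those labelled Math1-Cre 1 and 2 were as low as the other DKO libraries. The row also carries the symbol of a transcript within Gsk3a. Gsk3b averaged 10.78 ± 0.14, 10.78 ± 0.09 and 10.77 ± 0.10 in DKO, Math1-Cre and no-Cre libraries (SD, n = 5 each); its row need not cover the deleted part and checks nothing. Array medians ran from 5.01 to 5.21 over all rows and interquartile ranges from 3.43 to 3.85, with DKO 3, 4 and 5 and no-Cre 4 the narrowest. Precision is limited by the number of arrays.

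Zic1, which granule neuron progenitors of the mouse need to proliferate fully, had nearly the same mean in the groups. It stood at 11.20, 11.24, 11.32, 11.47 and 11.41 in DKO libraries 1 to 5. It stood at 11.32, 11.34, 11.31, 11.28 and 11.32 in Math1-Cre libraries, and at 11.51, 11.37, 11.21, 11.12 and 11.38 in no-Cre libraries. The DKO and no-Cre libraries spread over the same range, with the highest and the lowest library both no-Cre, and the Math1-Cre libraries sat close together inside it. The means were 11.33 ± 0.11 in DKO, 11.31 ± 0.02 in Math1-Cre and 11.32 ± 0.15 in no-Cre libraries (SD, n = 5 each).

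Zic4, its genomic neighbour, varied more. Its levels were 7.92, 8.03, 7.84, 8.20 and 8.04 in DKO libraries 1 to 5. They were 7.92, 7.90, 7.79, 7.74 and 7.72 in Math1-Cre libraries and 8.18, 7.95, 7.64, 7.76 and 7.99 in no-Cre libraries. All 3 groups overlapped, and the no-Cre libraries alone covered nearly the whole range. The means were 8.01 ± 0.14 in DKO, 7.81 ± 0.09 in Math1-Cre and 7.90 ± 0.21 in no-Cre libraries (SD, n = 5 each).

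Zic2, expressed in the same progenitors as Zic1, had levels of 10.91, 10.98, 11.16, 10.89 and 10.89 in DKO libraries 1 to 5. Math1-Cre libraries had 10.83, 10.79, 10.75, 10.68 and 10.97, and no-Cre libraries had 11.01, 10.98, 10.77, 10.80 and 10.96. The groups overlapped, with the highest library DKO 3 and the lowest Math1-Cre 4. The means were 10.96 ± 0.12 in DKO, 10.80 ± 0.11 in Math1-Cre and 10.90 ± 0.11 in no-Cre libraries (SD, n = 5 each).

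Zic5, the neighbour of Zic2, had levels of 9.19, 9.12, 9.33, 9.23 and 9.07 in DKO libraries 1 to 5. Math1-Cre libraries had 9.10, 8.93, 9.07, 9.13 and 9.19, and no-Cre libraries had 9.46, 9.19, 8.97, 8.88 and 9.19. The highest and the lowest library were both no-Cre, so the other groups lay inside the no-Cre range. The means were 9.19 ± 0.10 in DKO, 9.09 ± 0.10 in Math1-Cre and 9.14 ± 0.22 in no-Cre libraries (SD, n = 5 each). A second, dimmer row of Zic5 ran from 6.23 to 6.51 in DKO, from 6.25 to 6.38 in Math1-Cre and from 6.07 to 6.65 in no-Cre libraries, and these ranges overlapped too.

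**Figure D1:**
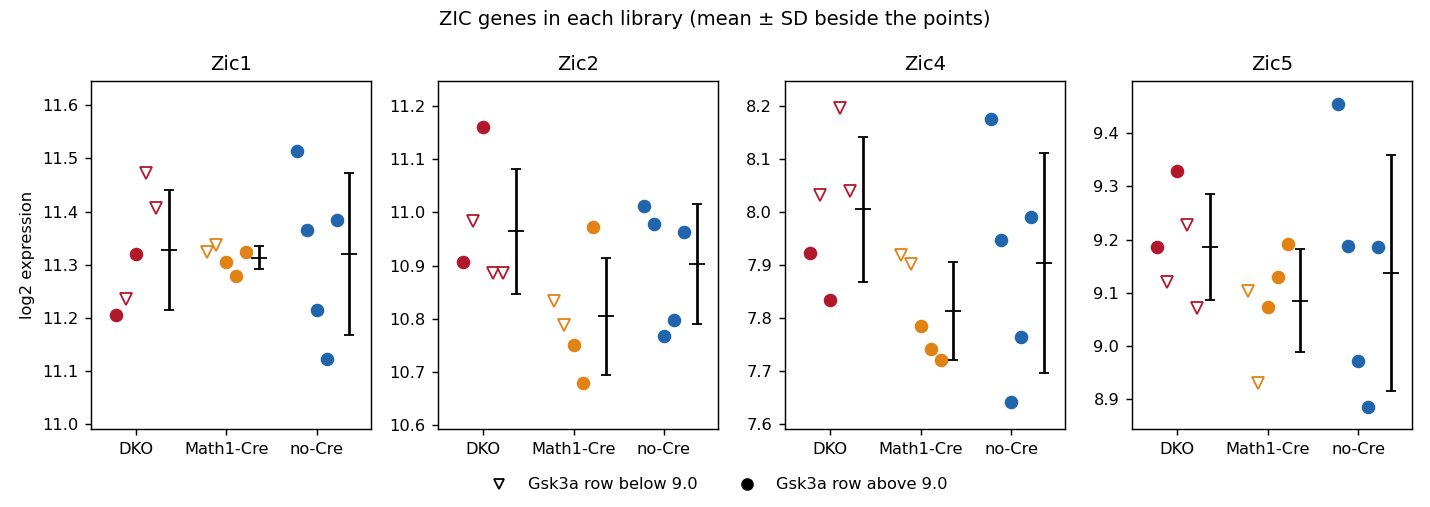
Log2 expression of Zic1, Zic2, Zic4 and Zic5 (vertical axes, each with its own range) in the DKO, Math1-Cre and no-Cre groups, 5 libraries each. Points are libraries, open triangles those with the Gsk3a row below 9.0, and bars the mean ± SD; the groups overlap in every panel, as for Zic1, where the no-Cre libraries run from 11.12 to 11.51 around all the others.

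Each gene was compared between groups in a limma fit over all genes, with Benjamini-Hochberg adjustment and a threshold of 0.05. For DKO minus no-Cre, 0 of 4 ZIC genes passed, where 0.0721% of all genes did. That share is 16 genes, and with 1 library left out the number ran from 0 to 1546, the highest without no-Cre 4, while it stayed at 0 for the ZIC genes. None of the 4 had an unadjusted p under 0.05 either, against 17.4% of all genes, and none had groups that do not overlap, against 2.58%. The Zic1 difference was 0.01 (95% confidence interval −0.16 to 0.17, limma adjusted p = 0.968), a fold of 1.01 with an interval of 0.898 to 1.13. The differences of Zic2, Zic4 and Zic5 were 0.06 (−0.11 to 0.23), 0.10 (−0.10 to 0.31) and 0.05 (−0.15 to 0.25), with limma adjusted p of 0.712, 0.606 and 0.816. Changes of more than 1.24-fold in either direction therefore lay outside these intervals for each gene. The median of the 4 differences was 0.06, and that of all genes was −0.02. In the 11 libraries that do not go against their label, the differences were 0.05, 0.01, 0.19 and 0.0023 for Zic1, Zic2, Zic4 and Zic5, and again 0 of 4 passed, against 1.08% of all genes. None had groups that do not overlap, against 7.2% of all genes. Zic4, at 0.19 (−0.06 to 0.43), then had a limma adjusted p of 0.521. Its interval reached a fold of 1.35, so the bound of 1.24 holds for the 15 libraries only.

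For DKO minus Math1-Cre, 0 of 4 ZIC genes passed, where 0.55% of all genes did. Each of the 4 was higher in the DKO mean as deposited. Over 43 settings of the fit Zic2 and Zic4 stayed above 0, while Zic1 and Zic5 were below 0 in 4 settings each, down to −0.065 and −0.048. Many of these settings cannot move this difference, such as the low-value filter or a no-Cre library left out. The count of settings is therefore no measure of how firm the sign is. Zic2 differed by 0.16 (−0.01 to 0.33, limma adjusted p = 0.235) and Zic4 by 0.19 (−0.01 to 0.40, limma adjusted p = 0.246). Zic1 and Zic5 differed by 0.01 (−0.15 to 0.18) and 0.10 (−0.10 to 0.31), with limma adjusted p of 0.925 and 0.537. None had an unadjusted p under 0.05, against 23% of all genes, and none had groups that do not overlap, against 6.96%. The median of the 4 differences was 0.13, and that of all genes was −0.05. In the 11 libraries Zic1, Zic2 and Zic5 differed by 0.07 (−0.17 to 0.31), 0.12 (−0.11 to 0.35) and 0.0081 (−0.28 to 0.30), with limma adjusted p of 0.770, 0.583 and 0.983.

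Zic4 had the widest separation of these genes once the 4 libraries were left out. Its levels were 8.03, 8.20 and 8.04 in DKO 2, 4 and 5, against 7.79, 7.74 and 7.72 in Math1-Cre 3, 4 and 5, so these libraries did not overlap. The difference was 0.34 ± 0.13 (SE; interval 0.07 to 0.62), a fold of 1.27 with an interval of 1.05 to 1.53. It had an unadjusted p of 0.0195 and did not pass after adjustment (limma adjusted p = 0.246). Of all genes 24.3% did not overlap between these libraries and 15.9% had an unadjusted p under 0.05, so 1 of 4 is near that background. In this fit 0 of 4 ZIC genes passed, against 0.541% of all genes. The no-Cre libraries, at 7.64 to 8.18, overlapped both sets of Zic4 levels.

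For Math1-Cre minus no-Cre, 0 of 4 ZIC genes passed, and 0% of all genes did. At an unadjusted p under 0.05 the counts were 0 of 4 ZIC genes and 716 of all genes, or 3.23%. Non-overlapping groups were found for none of the 4, against 0.55% of all genes. The differences were −0.01 (−0.17 to 0.16) for Zic1, −0.10 (−0.27 to 0.07) for Zic2, −0.09 (−0.30 to 0.11) for Zic4 and −0.05 (−0.26 to 0.15) for Zic5. In the 11 libraries they were −0.02, −0.10, −0.16 and −0.01, and 0 of 4 passed, with 488 of all genes, or 2.2%, at an unadjusted p under 0.05 and 2.25% without overlap. The 3 comparisons share their groups, so these differences are not independent of each other.

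**Figure D2:**
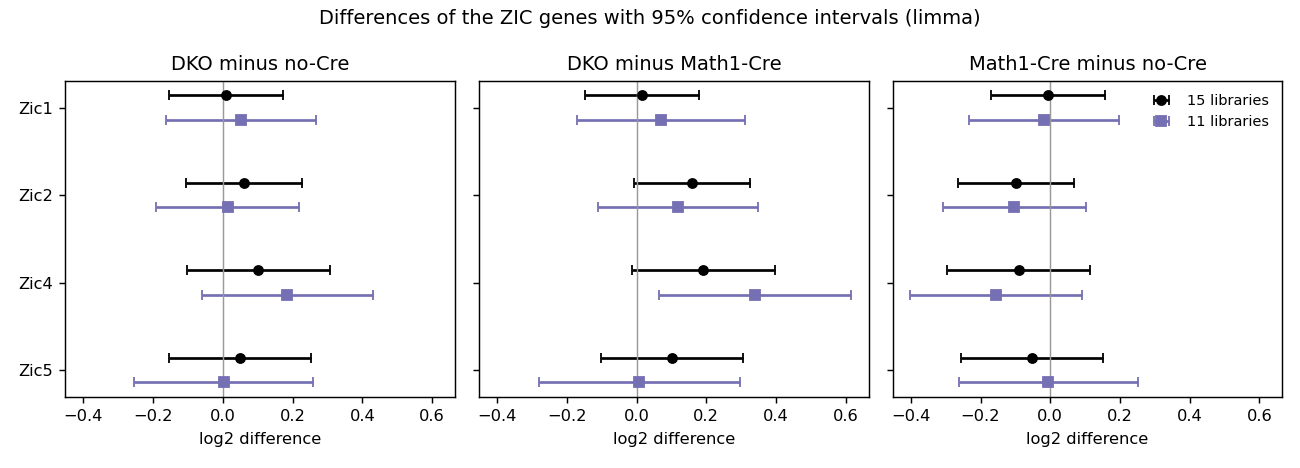
Log2 differences of the 4 ZIC genes (horizontal axis) in the 3 comparisons, with 95% confidence intervals of the limma fit, for all 15 libraries (circles) and the 11 left without those that go against their label (squares). Every interval includes 0 apart from Zic4 in DKO minus Math1-Cre with 11 libraries, at 0.34, which did not pass after adjustment.

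Within groups Zic1 and Zic2 varied little, and Zic4 and Zic5 varied more. The residual SD of the fit was 0.111 for Zic1, 0.113 for Zic2, 0.153 for Zic4 and 0.152 for Zic5. The median over all genes was 0.165, and over 5292 genes with a mean level of at least 8 it was 0.129. Zic1 and Zic2 were thus less variable between replicates than the median bright gene, and Zic5, also above that level, was more variable. Of the 43 settings, these fits counted, none called a ZIC gene in any comparison, and the lowest adjusted p was 0.13.

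The ZIC genes were then set beside the genes of cell division in the same library. The mean level of 22 measured mitosis genes, such as Aurka and Kif11, a kinase and a motor of the mitotic spindle, was 7.93, 7.44, 7.90, 7.64 and 7.90 in DKO libraries 1 to 5. It was 7.64, 7.63, 8.08, 8.24 and 8.37 in Math1-Cre libraries and 8.51, 8.44, 8.20, 8.07 and 8.29 in no-Cre libraries. Every DKO library lay below every no-Cre library, the libraries labelled DKO 1 and 3 included. The mean was 7.76 ± 0.22 in DKO and 8.30 ± 0.18 in no-Cre libraries (SD, n = 5 each), a difference of −0.54. As single genes, 1 of the 22 passed in the limma fit, Spag5, a protein of the spindle, at −0.52 (limma adjusted p = 0.0392), where 0.0541% of all genes were called lower; the differences of all 22 were below 0, with a median of −0.51. This list was chosen with its fall in these data known, so its direction is not independent evidence. In RNA of mixed cells, fewer cells of a type and less RNA per cell cannot be told apart.

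Each ZIC gene was also subtracted from the mitosis mean of the same library. For Zic1 the difference between list and gene was −3.57 ± 0.24 in DKO and −3.02 ± 0.07 in no-Cre libraries (SD, n = 5 each), so DKO minus no-Cre was −0.55. For Zic2, Zic4 and Zic5, DKO minus no-Cre was −0.60, −0.64 and −0.59. In each of these 4 cases the DKO and no-Cre libraries did not overlap. The list alone differed by −0.54 and did not overlap, and the ZIC genes differed by 0.10 or less, so the separation is that of the list. The two-sided exact permutation p was 0.0079 for each ZIC gene and for the list alone, the smallest that 5 against 5 libraries can give; as the list was chosen with its fall known, this p is no independent evidence, and it is no test of the ZIC genes.

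Set against Math1-Cre libraries, DKO minus Math1-Cre was −0.24, −0.39, −0.42 and −0.33 relative to Zic1, Zic2, Zic4 and Zic5, and the groups overlapped. Math1-Cre minus no-Cre was −0.30, −0.21, −0.22 and −0.26, again with overlap. The libraries labelled Math1-Cre 1 and 2, at −3.69 and −3.71 relative to Zic1, lay among the DKO libraries. Math1-Cre 4 and 5, at −3.04 and −2.95, lay among the no-Cre libraries, and Math1-Cre 3, at −3.23, lay between the no-Cre libraries (−3.10 to −2.92) and the nearest DKO library, DKO 1 at −3.28. Among the 11 libraries, DKO minus no-Cre was −0.69, −0.66, −0.83 and −0.64 and the groups still did not overlap. DKO minus Math1-Cre was then −0.64, −0.69, −0.91 and −0.58, also without overlap. Math1-Cre minus no-Cre was −0.05, 0.03, 0.08 and −0.07.

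**Figure D3:**
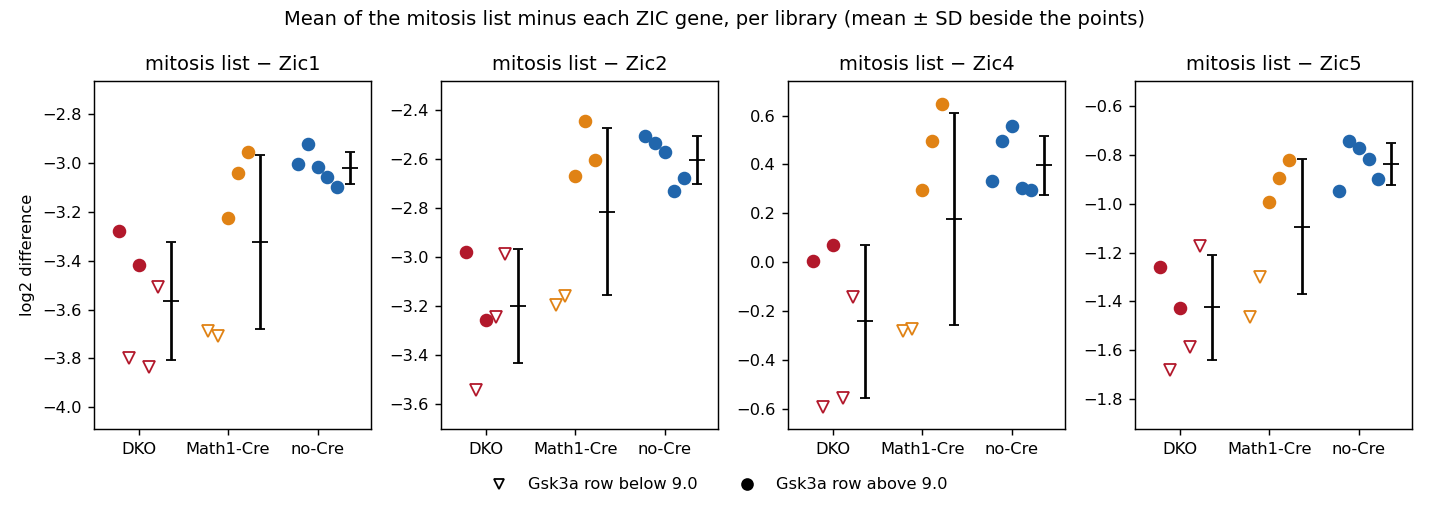
Mean log2 level of the mitosis list minus the level of each ZIC gene (vertical axes, log2 difference) in every library, with mean ± SD, for the DKO, Math1-Cre and no-Cre groups; open triangles have the Gsk3a row below 9.0. Every DKO library lies below every no-Cre library in each panel, for Zic1 between −3.83 and −3.28 against −3.10 to −2.92, and Math1-Cre libraries 1 and 2 lie apart from the other Math1-Cre libraries.

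The libraries can also be described by the Gsk3a row alone, with 5 libraries below 9.0 (DKO 2, 4 and 5, Math1-Cre 1 and 2) and 10 above. Nearest to that line were DKO 5 below it, at 8.27, and DKO 3 above it, at 9.37. Zic1 ran from 11.24 to 11.47 in the low libraries and from 11.12 to 11.51 in the high ones. Zic2 ran from 10.79 to 10.98 in the low and from 10.68 to 11.16 in the high libraries. Zic4 ran from 7.90 to 8.20 in the low and from 7.64 to 8.18 in the high libraries, with medians of 8.03 and 7.81. Zic5 ran from 8.93 to 9.23 in the low and from 8.88 to 9.46 in the high libraries. So all 4 ZIC genes overlapped between low and high libraries. The share of all genes that overlap in this split was not counted, so this does not set the ZIC genes apart.

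Of the other genes and lists of the lineage and the cycle, some overlapped between the same libraries and some did not. Here too the share over all genes was not counted. Atoh1 overlapped, at 7.81 to 8.65 in the low and 8.54 to 9.31 in the high libraries. Neurod1, a transcription factor of differentiating granule neurons, ran from 4.57 to 5.01 in the low and from 4.50 to 5.73 in the high libraries, and Gli1, an effector and target of Sonic hedgehog signalling, from 5.64 to 6.26 and from 6.15 to 6.79. The measures that follow did not overlap. Mki67, a marker of cycling cells, ran from 8.57 to 9.01 in the low and from 9.17 to 9.80 in the high libraries. The mean of 12 genes listed for granule neuron progenitors ran from 7.83 to 7.90 in the low and from 8.13 to 8.35 in the high libraries. That list includes Nhlh1, a gene of young granule neurons. The mean of 19 DNA replication genes ran from 7.14 to 7.47 in the low and from 7.56 to 7.99 in the high libraries. The mitosis mean touched without overlapping, at 7.44 to 7.90 in the low and 7.90 to 8.51 in the high libraries. Axin2 and Lef1, targets of WNT signalling, ran the other way, Lef1 from 8.62 to 9.00 in the low and from 6.54 to 7.31 in the high libraries. The mean of 12 genes of differentiating granule neurons did overlap, at 8.57 to 8.70 in the low and 8.57 to 8.90 in the high libraries. Relative to Zic1 the mitosis mean was −3.83 to −3.51 in the low and −3.42 to −2.92 in the high libraries, and relative to Zic4 it was −0.59 to −0.14 and 0.01 to 0.65. Relative to Zic2 and Zic5 the ranges overlapped.

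Within the family, all 6 pairs of genes were positively correlated over the 15 libraries. The 2 highest correlations of the values as deposited were those of the genomic neighbours, an order that did not hold in other settings. Zic1 and Zic4 had a Pearson r of 0.714 (permutation p = 0.00291, adjusted p = 0.0478 over 26 relations) and a Spearman rho of 0.665 (permutation, adjusted p = 0.0692). Zic2 and Zic5 had an r of 0.702 (permutation p = 0.00368, adjusted p = 0.0478) and a rho of 0.696 (permutation, adjusted p = 0.0653). Leaving out the 2 libraries farthest from the median gave r of 0.62 for Zic1 with Zic4 and 0.777 for Zic2 with Zic5. With these fewer libraries Zic1 with Zic4 did not pass (permutation, adjusted p = 0.207). With each label group centred on its mean, r was 0.789 (permutation, adjusted p = 0.0127) for Zic1 with Zic4 and 0.679 (permutation, adjusted p = 0.0614) for Zic2 with Zic5. Over the 11 libraries that do not go against their label, r was 0.764 and 0.619, and neither passed (permutation, adjusted p = 0.0861 and 0.201).

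The pairs that are no neighbours gave lower correlations over the 15 libraries as deposited, and none passed there. Zic1 with Zic5 had an r of 0.646 (permutation, adjusted p = 0.0608), which was 0.253 without the 2 libraries farthest from the median and so rested on them. Over the 11 libraries, however, Zic1 with Zic5 was the highest of the 6 pairs, at 0.856, and the only one to pass (permutation, adjusted p = 0.026). With quantile normalization it was 0.735 (permutation, adjusted p = 0.0178), above the 0.727 of the neighbours Zic2 and Zic5, and it passed in 1 of the 15 settings that leave out 1 library. Zic4 with Zic5, Zic2 with Zic4 and Zic1 with Zic2 had r of 0.518, 0.406 and 0.347 (permutation, adjusted p = 0.247, 0.429 and 0.532). Over the 11 libraries these were 0.66, 0.621 and 0.51, so that Zic4 with Zic5 and Zic2 with Zic4 also lay above Zic2 with Zic5. Whether neighbours are more alike than the other pairs was not tested. Over the 15 settings that leave out 1 library, r ran from 0.627 to 0.80 for Zic1 with Zic4 and from 0.649 to 0.789 for Zic2 with Zic5, and each passed after adjustment in 4 of these settings. All 4 genes share libraries and array scaling, and their r with the interquartile range of the array lay between −0.163 and 0.148 (none passed by permutation).

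**Figure D4:**
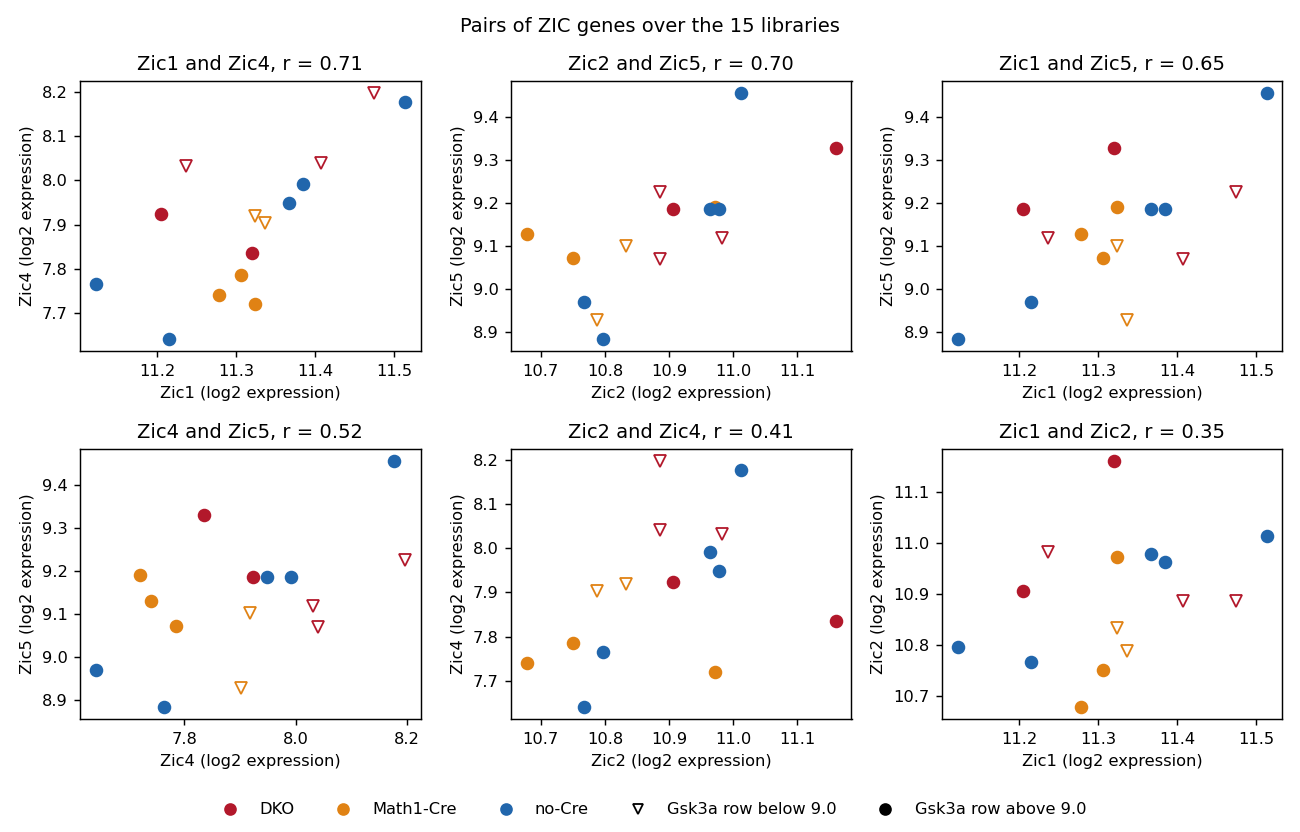
Log2 expression of each pair of ZIC genes (both axes) over the 15 libraries, coloured by group, with open triangles for libraries whose Gsk3a row is below 9.0. The neighbour pairs Zic1 with Zic4 (r = 0.714) and Zic2 with Zic5 (r = 0.702) come first in these values as deposited, and Zic1 with Zic2 (r = 0.347) last.

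No ZIC gene had a correlation with the mitosis mean over the libraries that passed. Pearson r was 0.164 for Zic1, 0.074 for Zic2, −0.247 for Zic4 and 0.317 for Zic5 (permutation, adjusted p between 0.594 and 0.879). Over the 11 libraries these were 0.17, 0.063, −0.305 and 0.30, and none passed (permutation). The r with the mean of 13 meningeal and pericyte genes lay between −0.04 and 0.276, and with the mean of 14 HOX genes of the caudal hindbrain between −0.415 and −0.085, and none passed (permutation). For the mean of 6 genes of serotonin and noradrenaline neurons, which lie in the brainstem, r with Zic2 was −0.665 (permutation p = 0.00681, adjusted p = 0.059), with a rho of −0.707 (permutation, adjusted p = 0.0653). It was −0.597 without the 2 libraries farthest from the median, and it did not pass after adjustment. With Zic1, Zic4 and Zic5 that r was −0.152, −0.178 and −0.429. Over the 11 libraries the r of Zic2 was −0.616 (permutation, adjusted p = 0.201), and those of the 4 genes with the meningeal and the HOX mean lay between −0.108 and 0.355 and between −0.492 and −0.188, none passing.

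Markers of other cells varied between libraries, and their part in the ZIC levels was not tested. The meningeal mean ran from 6.75 to 7.90 in DKO, from 7.00 to 8.19 in Math1-Cre and from 7.19 to 7.63 in no-Cre libraries, highest in Math1-Cre 5 and DKO 5. In those libraries Zic1 stood at 11.32 and 11.41, inside the range of the others. The serotonin and noradrenaline mean ran from 4.52 to 6.35 in DKO, from 3.95 to 7.53 in Math1-Cre and from 4.27 to 7.58 in no-Cre libraries, a wider spread within groups than between them. The HOX mean lay between 3.28 and 3.96 in all libraries, where olfactory and vomeronasal receptor genes had medians of 3.49 to 4.11. No gene of these lists passed in any comparison of the 15 libraries, where at most 0.55% of all genes did.

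The genes whose levels were most alike over the 15 libraries were taken from 9827 genes with a mean level of at least 6, as a description with no test. For Zic1 the closest were Fcf1 (r = 0.871) and Wdr43 (r = 0.869), which process ribosomal RNA, followed by Pusl1, Gemin5 and Naa50 at 0.851 or above. For Zic2 they were Smarca4 (r = 0.905), an ATPase that remodels chromatin, then Cttnbp2, Dcc, a netrin receptor, Bahcc1 and the splicing factor Sf1 at 0.815 or above. For Zic4 they were Fat2 (r = 0.823), a cadherin of granule neurons, then Akr1e1, Pusl1, Rbis and Draxin at 0.768 or above. For Zic5 they were Neurod2 (r = 0.882), a transcription factor of differentiating granule neurons, then Macroh2a1, Hspa5, Hnrnpm and Cdk5rap2 at 0.866 or above. Pusl1 was named for both Zic1 and Zic4, and no gene was named for both Zic2 and Zic5. With label groups centred, these 20 correlations lay between 0.73 and 0.936, and over the 11 libraries between 0.686 and 0.94. The genes were picked for a high r in these same libraries, so such values are no separate check.

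Of 11 genes tied to ZIC proteins in earlier work as partners or reported targets, 0 passed in any comparison of the 15 libraries. Of all genes 0.0721% passed in DKO minus no-Cre, 0.55% in DKO minus Math1-Cre and 0% in Math1-Cre minus no-Cre. At such shares 0 of 11 does not set these genes apart. The GLI factors Gli1, Gli2 and Gli3, which bind ZIC proteins, differed by −0.15, 0.03 and −0.22 between DKO and no-Cre libraries (limma adjusted p = 0.702, 0.916 and 0.232). Mdfi, an inhibitor of myogenic factors that binds ZIC proteins, differed by −0.09 and Tcf7l2, a transcription factor of the WNT pathway, by 0.61 (limma adjusted p = 0.731 and 0.526). In the 11 libraries Tcf7l2 turned to −0.18 (limma adjusted p = 0.896) and Gli2 to −0.03, while Gli1, Gli3 and Mdfi were at −0.40, −0.31 and −0.09 (limma adjusted p = 0.366, 0.232 and 0.834). Among reported targets, Ephb1, an ephrin receptor, differed by 0.28 (limma adjusted p = 0.206), and Apoe, Drd1, Cntn2 and the cyclin Ccnd1 by 0.03, −0.09, −0.17 and −0.31, none passing. In the 11 libraries Ephb1, Apoe, Drd1, Cntn2 and Ccnd1 were at 0.15, 0.18, −0.13, −0.31 and −0.58, and none passed, Ccnd1 with a limma adjusted p of 0.0743. Atoh1, the transcription factor that keeps granule neuron progenitors dividing, was 8.43 ± 0.35 in DKO and 9.14 ± 0.16 in no-Cre libraries (SD, n = 5 each), a difference of −0.71 (limma adjusted p = 0.116). Among the 11 libraries Atoh1 fell by 0.80 on the log2 scale, just past the threshold (limma adjusted p = 0.0495), as the only one of these genes. In that fit 0.64% of all genes were called lower and 0.437% higher. Atoh1 stood at 7.81 in DKO 2, well below the 8.57 and 8.65 of DKO 4 and 5. The no-Cre libraries had 8.94 to 9.31.

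In the same comparison of the 11 libraries, 3 of 12 genes of the progenitor list (Atoh1, Nhlh1 and Mycn) were called lower. So were 8 of 22 mitosis genes and 3 of 19 replication genes. Called or not, 11 of the 12, all 22 and all 19 were below 0, as were 12399 of all 22180 genes. Nhlh1, in the progenitor list though a transcription factor of young granule neurons, had the largest change of that list, at −1.20. Mycn, a driver of progenitor proliferation, changed by −0.64 (limma adjusted p = 0.000571 and 0.0296). Kif11 changed by −0.89 and Mcm3, a subunit of the replicative helicase, by −0.84 (limma adjusted p = 0.0103 and 0.028). Gabra6, a GABA receptor subunit of mature granule neurons, rose by 1.70 and Grin2c, a subunit of the NMDA receptor there, fell by 1.02 (limma adjusted p = 0.00239 and 0.0123). Of 12 genes of differentiating granule neurons no others were called, and 9 were below 0, with a median of −0.12. Gabra6 averaged only 3.70 in no-Cre libraries and Grin2c only 3.73 in DKO libraries. Olfactory and vomeronasal receptor genes had medians of 3.49 to 4.11. Of 7 WNT feedback genes 6 rose, Wif1 by 3.76 (limma adjusted p = 1.003e-06). The remaining gene, Lgr5, went the other way, at −0.69, and did not pass (limma adjusted p = 0.0657). Beside these changes the ZIC genes differed by 0.0023 to 0.19, with a median of 0.03 against −0.02 over all genes.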

How the data were processed

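The authors deposited log2 expression values for each array row in each library, which were used unchanged; the submitters' processing notes name RMA, Partek 6.6 and mm9. Of 41345 rows, 23521 carried 1 gene symbol; the row with the highest mean stood for each of 22180 genes. Groups and replicate numbers come from the labels. Since no litter or day is given in the labels, p-values reflect the spread among these samples only. limma 3.58.1 (R 4.3.3) was fitted with a mean per group to all 15 libraries (12 residual degrees of freedom) and to the 11 that do not go against their label (8), with two-sided p-values, Benjamini-Hochberg adjusted over all genes, and was tested on simulated data. Differences between the mitosis mean and a ZIC gene were compared by exact permutation, and correlations by 100000 permutations (scipy 1.17.1); correlations with the serotonin list and array spread were added after the data were seen. The genes named are the ZIC genes, the Gsk3a and Gsk3b rows, some context genes, called members of 17 gene lists, all ZIC partners, and the 5 genes most like each ZIC gene. Members and lists were chosen with earlier results of these data known. Of list memberships, 178 of 189 were measured. Deviations of same-numbered libraries of different groups had correlations between −0.303 and 0.299. Between DKO and Math1-Cre libraries their median was 0.118, against −0.046 for other numbers, and 3 of 5 DKO libraries were closest to their own number. In the other comparisons the same-number median was the lower. Replicate numbers were not treated as pairs in the main fit, and a fit with them as a block is given below. Alternatives were normalization, centring, filters, weights, covariates, another row per gene and libraries left out. Promoters come from RefSeq (GRCm38.p6), 3 of 4 members matched; no promoter coordinate was set against mm9 values.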

Additional observations from a re-analysis of the deposited data

Results flagged for a closer look

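Over 66 groups of 5 libraries tested for a library far from the rest, 4 stood out, where chance flags about 1 in 20 groups. Atoh1 stood at 7.81 in DKO 2, where the other DKO libraries had 8.54 to 8.65. The mean of the HOX genes stood at 3.84 in DKO 5, where the other DKO libraries had 3.29 to 3.43. It stood at 3.58 in Math1-Cre 3, where the others of that group had 3.37 to 3.41. The mean of the meningeal and pericyte genes stood at 8.19 in Math1-Cre 5, where the others of that group had 7.00 to 7.24. In these libraries no ZIC gene stood apart from its group by the same measure.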

How the results depend on the processing

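No ZIC gene passed in any of the 43 settings, and over them the differences ran from −0.069 to 0.266 for DKO minus no-Cre, from −0.065 to 0.465 for DKO minus Math1-Cre and from −0.221 to 0.097 for Math1-Cre minus no-Cre. Values near 0 changed sign, none of them past the threshold, and the cause was not tested. Centring on the array median gave −0.069, −0.017 and −0.028 for Zic1, Zic2 and Zic5 in DKO minus no-Cre and −0.065 for Zic1 in DKO minus Math1-Cre; it moved the median of all genes to −0.094 and −0.129 in these comparisons. Array weights gave −0.029 for Zic1 and the other Zic5 row −0.057, both DKO minus no-Cre. The code cg1724 belongs to DKO 5, Math1-Cre 5 and no-Cre 5, so it crosses the groups. Without the 3 libraries coded cg1724, Zic1 was at −0.002 in DKO minus Math1-Cre and 0.007 in Math1-Cre minus no-Cre. Leaving out 1 library at a time, Zic1 ran from −0.041 to 0.056, from −0.022 to 0.046 and from −0.056 to 0.042 in the comparisons in the order above, and Zic5 from −0.013 to 0.129 in the first and from −0.115 to 0.028 in the last. The replicate number as a block (replicate block) called 0 ZIC genes and 6, 0 and 0 of all genes, against 16, 122 and 0 without it. With it Zic4 in DKO minus Math1-Cre was 0.191, unchanged because the block is balanced over the groups. Of all genes, 16 were called in DKO minus no-Cre and 122 in DKO minus Math1-Cre. With 1 library left out these counts ran from 0 to 1546 and from 0 to 1288, both highest without no-Cre 4. Over the other settings they ran from 0 (quantile normalization) to 739 (array weights) and from 0 (replicate block) to 1767 (centring).

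Relative to the mitosis mean, whose list was chosen with its fall known, 4 of 4 exact permutation tests of DKO minus no-Cre were past the threshold. They were so too when any 1 library was left out. Since the full groups do not overlap, leaving out 1 library cannot make them overlap, and a Math1-Cre library is not in these groups. The repeats are therefore no added support. The count was 0 of 4 without the 4 libraries against their label and 0 of 4 without those coded cg1724 (adjusted p = 0.0857), with each exact permutation p the smallest that these smaller groups allow. For Math1-Cre minus no-Cre the count ran from 0 to 2 with 1 library left out. Without Math1-Cre 5, the mitosis mean minus Zic1 (−0.396) and minus Zic5 (−0.326) passed, with an exact permutation adjusted p of 0.0476. These are no tests of the ZIC genes themselves. Without the 4 libraries, the mitosis mean minus Zic2 and minus Zic4 turned to 0.031 and 0.083 in that comparison.

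Correlations that passed numbered 2 of 26. They numbered 1 with groups centred, 1 without the 2 farthest libraries, 4 with quantile normalization and 1, Zic1 with Zic5, without the 4 libraries; with 1 library left out they ran from 0 to 4, the 4 without no-Cre 4. Correlations that had not passed changed sign. With groups centred, Zic4 turned to 0.046 with the meningeal mean, and Zic2 and Zic4 to 0.167 and 0.158 with array spread. Without the 2 farthest libraries, Zic1 turned to −0.024 with the mitosis mean, Zic4 to 0.054 with the HOX, 0.116 with the meningeal and 0.006 with the serotonin mean, Zic5 to −0.161 with the meningeal mean, and Zic1, Zic2, Zic4 and Zic5 to −0.472, 0.178, 0.123 and −0.39 with array spread. With quantile normalization, Zic2 turned to −0.02 with the mitosis and −0.024 with the meningeal mean, and Zic1 and Zic5 to −0.467 and −0.294 with array spread; Zic2 with the serotonin mean then passed, at −0.68. Without the 4 libraries, Zic2 turned to 0.103 with array spread. With 1 library left out, r ran from −0.065 to 0.341 (Zic1) and −0.042 to 0.203 (Zic2) with the mitosis mean, from −0.253 to 0.175 (Zic1) and −0.494 to 0.051 (Zic4) with the HOX mean, and from −0.123 to 0.371 (Zic2), −0.168 to 0.228 (Zic4) and −0.093 to 0.257 (Zic5) with the meningeal mean. With array spread it ran from −0.282 to 0.291, −0.358 to 0.068, −0.375 to 0.006 and −0.18 to 0.32 for Zic1, Zic2, Zic4 and Zic5.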
